A study of Mus musculus with 24 samples.

Results

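A set of 10 genes that were far lower in regulatory T cells than in conventional T cells of the same tissue was followed across all groups of the study: Pdlim4, Lypd6b, Ggt5, Fam240a, Dapl1, Slc16a5, Nme4, Atp8b4, Adamts14 and Igfbp4. They were chosen by their large differences between these cell types, so that difference is given here as a description, with no test. All 10 symbols matched 1 gene each, out of 35612 genes in the table. What the choice did not use, and what was tested, is how each gene varied between tissues within a cell type.

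RNA was sequenced from sorted CD4 T cells of C57BL/6 males aged 5 months with the Foxp3Thy1.1 reporter allele, which puts the surface protein Thy1.1 on cells that express Foxp3. Both cell types came from reporter mice and differed in the gate: Foxp3+ cells were taken as regulatory T cells (Treg) and Foxp3- cells as conventional T cells (Tconv). They were sorted as live CD45+ TCRβ+ CD4+ cells without NK-1.1, CD8α or CD1d tetramer staining, and no activation marker was part of the gate. The 4 sources were spleen, blood (PBMC), liver and the lymph node that drains it (LDLN). Each of the 8 groups had 3 libraries, each from a pool of 3 mice, so the spread between libraries is that between pools. In pooled, sorted cells, fewer cells that express a gene and less RNA per cell cannot be told apart.

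Treg suppress immune responses, and the transcription factor Foxp3 both marks them and shapes their gene expression, in part by keeping genes of Tconv low. Naive and resting T cells recirculate through blood and lymphoid organs under factors such as Tcf7 and Lef1. The 10 genes belong to no single pathway. Pdlim4 is an adaptor of the actin cytoskeleton with a PDZ and a LIM domain. Lypd6b is a cell surface protein of the Ly6 type. Ggt5 is a gamma-glutamyl transferase that cleaves glutathione conjugates, leukotriene C4 among them. Slc16a5 belongs to the monocarboxylate transporters, Atp8b4 to the P4-ATPases that move lipids between membrane leaflets, and Nme4 is a mitochondrial nucleoside diphosphate kinase. Adamts14 is a secreted protease that trims procollagen, and Igfbp4 is a secreted protein that binds insulin-like growth factors. Dapl1 is a small protein related to the death-associated protein Dap.

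Promoter sequence is shown for 3 of the 10 genes because they differ in base composition and in response. Pdlim4 had the largest difference of the 10 between the cell types and Igfbp4 the smallest, both behind a start rich in CG dinucleotides, and Dapl1, with the highest Tconv level per kilobase of exon, had a start poor in them. Each sequence is the 250 bases before the RefSeq start on GRCm38.p6, written 5′ to 3′ along the gene's strand at chr11:54069018-54069267 (minus), chr2:59484403-59484652 (plus) and chr11:99040994-99041243 (plus). Capitals mark a match to 1 of the 7 motifs searched.
Pdlim4: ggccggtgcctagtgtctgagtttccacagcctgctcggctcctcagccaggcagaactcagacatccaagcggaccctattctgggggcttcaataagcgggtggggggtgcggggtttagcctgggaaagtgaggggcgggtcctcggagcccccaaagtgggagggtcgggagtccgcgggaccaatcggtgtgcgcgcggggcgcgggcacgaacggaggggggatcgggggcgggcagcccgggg
Dapl1: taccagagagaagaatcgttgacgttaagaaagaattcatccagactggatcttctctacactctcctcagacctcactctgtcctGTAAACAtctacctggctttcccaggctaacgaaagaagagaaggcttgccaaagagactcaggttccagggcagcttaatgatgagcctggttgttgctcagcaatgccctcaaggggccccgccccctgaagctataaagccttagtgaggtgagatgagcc
Igfbp4: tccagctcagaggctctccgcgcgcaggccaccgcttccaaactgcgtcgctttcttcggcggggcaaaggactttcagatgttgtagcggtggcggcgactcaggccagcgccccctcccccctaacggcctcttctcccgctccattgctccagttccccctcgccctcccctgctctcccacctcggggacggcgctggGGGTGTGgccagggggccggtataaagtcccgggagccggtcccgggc

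RefSeq windows were matched for 7 of the 10 genes and not for Lypd6b, Ggt5 and Slc16a5. CG dinucleotides numbered 35 in Adamts14, 22 in Igfbp4, 21 in Pdlim4, 11 in Nme4, 5 in Fam240a, 4 in Dapl1 and 3 in Atp8b4, against a median of 6 over 32851 windows of that length. GC content ran from 47.6% in Fam240a to 76.4% in Adamts14, with a median over all windows of 52.4%. Both strands were searched for TGTTTAC (forkhead), CTTTGAT (TCF and LEF), TGTGGTT (RUNX), CCGGAAG (ETS), TGGAAAA (NFAT), AGATAAG (for GATA factors) and GGGTGTG (KLF). Dapl1 held the forkhead letters 164 to 158 bases before its start, on the opposite strand, as did 3.17% of all windows. Igfbp4 held the KLF letters 48 to 42 bases before its start, as did 6.93% of windows. Atp8b4 held the NFAT letters 17 to 11 bases before its start, as did 5.93% of windows. The TCF and LEF letters are in 3.21% of windows, RUNX in 4.40%, ETS in 6.91% and GATA in 2.74%, and in none of the 7 windows matched here. The windows thus ranged from CG-dense to CG-poor, with no motif in more than 1 of them.

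Values are normalized read counts, that is reads per gene divided by a size factor of the library, from libraries of 17523927 to 25398037 reads. Errors of levels are standard deviations over 3 libraries. The sum of 4 Treg markers, Foxp3, Il2ra, Ikzf2 and Ctla4, was 44671 to 84840 in Treg libraries and 1051 to 15339 in Tconv libraries. Ctla4 alone did not separate the cell types, at 8746 in spleen Tconv library 1 and 5985 in PBMC Treg library 3. Cd3e was at 20836 to 28386 in all 24. Foxp3 was 305 to 627 in 5 Tconv libraries (liver 1 and 3, LDLN 3, PBMC 1, spleen 3) and 13.6 to 30.5 in the other 7, beside Treg means of 1573 (liver) to 1987 (PBMC). Il2ra was split alike, at 893 to 1423 in those 5 and 226 to 619 in the other 7, with a lowest Treg value of 6607. The median over those 5 was above that over the other 7 for 9 of the 10 genes, and below it for Igfbp4, at 2663 against 2936. The same was not counted over all genes, so nothing is read from this count. The 7 include liver library 2, the lowest Tconv library for Lypd6b, Ggt5, Fam240a, Dapl1 and Slc16a5. Liver Tconv library 2 stood apart in markers of other cells, with macrophage and monocyte genes summing to 9839.9 against 239 and 242 in the other 2, and B cell genes to 22215 against 2892 and 3184. Its erythroid genes summed to 97117 against 4998 and 22310, and its NK cell genes to 6476 against 899 and 1793. Its plasma cell genes summed to 6036 against 473 and 791, and its neutrophil genes to 1556 against 3.28 and 2.99. Spleen Treg library 1 stood apart in plasma cell genes, at 12309 against 3193 and 1684. Its B cell genes summed to 18333 against 6891 and 6633, and its macrophage and monocyte genes to 3711 against 1780 and 2022. Its neutrophil genes summed to 839 against 64.6 and 35.6. Hepatocyte markers were not analysed here.

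In all 10 genes the lowest of the 12 Tconv libraries was above the highest of the 12 Treg libraries. Such a gap was found in 267 of the 18576 genes tested, or 1.44%, and nothing is read from the members' count, since they were chosen for it. Treg held from 0.359% of the Tconv level (Fam240a in LDLN) to 33.2% (Igfbp4 in PBMC). Adjusted for the length of their exons, the Tconv levels ran from 25.2 normalized counts per kilobase for Adamts14 to 3742 for Dapl1. Treg levels per kilobase ran from 2.58 for Adamts14 to 279 for Dapl1, with Igfbp4 at 162. The genes with the most Treg RNA per kilobase were thus Dapl1 and Igfbp4.

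**Figure D1:**
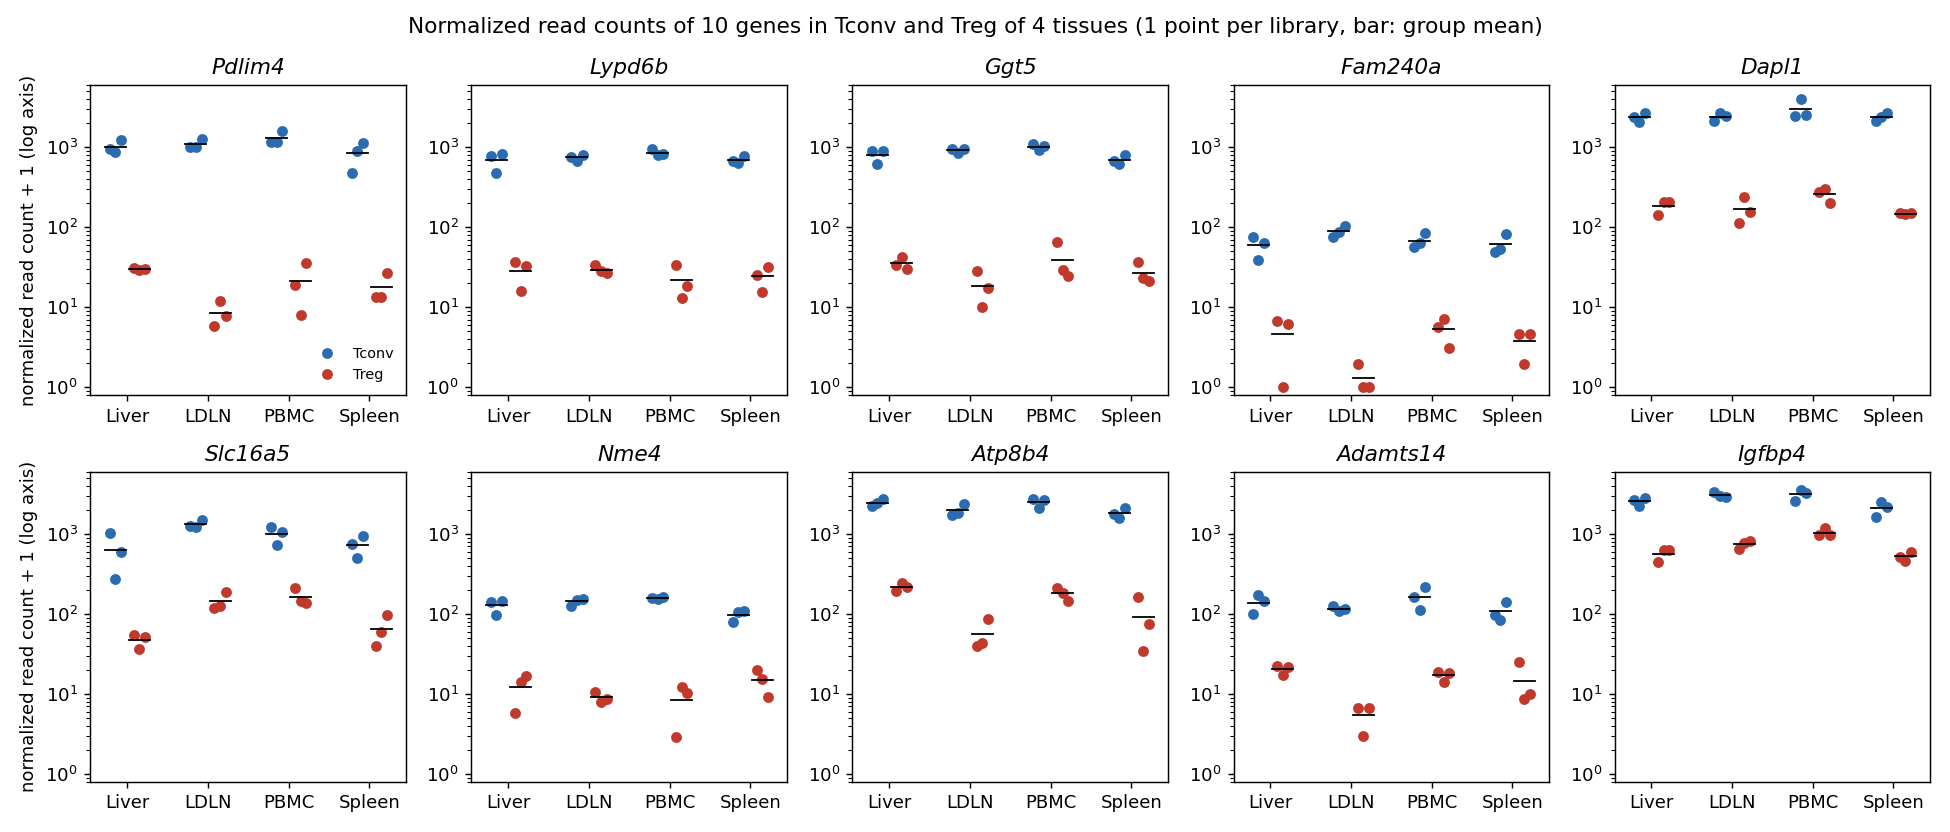
Normalized read counts plus 1 (log axis) of the 10 genes in each library, by tissue, with Tconv in blue, Treg in red and a bar at each group mean. Every blue point lies above every red point of the same gene, and the distance between the cell types' means is smallest in Igfbp4 and largest in Pdlim4.

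Pdlim4 (ENSMUSG00000020388, chromosome 11, 54054928 to 54069014, minus strand) showed the largest difference. Its Tconv values were 962, 866 and 1222 in liver, 1006, 1011 and 1265 in LDLN, 476, 899.8 and 1139 in spleen and 1146, 1168 and 1569.8 in PBMC. The lowest was spleen library 1, and all PBMC libraries lay above all spleen libraries, while the other tissues overlapped. In Treg the values were 29.9, 28.2 and 29.2 in liver, 4.74, 10.97 and 6.67 in LDLN, 12.5, 12.5 and 25.5 in spleen and 17.97, 7.06 and 34.8 in PBMC. The 3 LDLN libraries lay below all liver and spleen libraries, and PBMC spread from within LDLN to above liver. Treg held 2.86% of the Tconv level in liver, 0.682% in LDLN, 2.01% in spleen and 1.54% in PBMC. In LDLN that share rests on 23 reads in 3 Treg libraries. From summed reads corrected for library size it was 0.674%, with a 95% exact counting interval of 0.427 to 1.01%.

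Lypd6b (ENSMUSG00000026765, chromosome 2, 49787688 to 49948849, plus strand) had 12 Tconv values from 474 (liver library 2) through a median of 769 to 938 (PBMC library 1). Its 12 Treg values ran from 12.1 to 35.7, with group means of 27.4 ± 10.8 in liver, 28.3 ± 3.47 in LDLN, 23.2 ± 8.31 in spleen and 20.9 ± 10.9 in PBMC. All 4 Treg groups overlapped, and Treg held 2.44% (PBMC) to 3.95% (liver) of the Tconv level. Ggt5 (ENSMUSG00000006344, chromosome 10, 75589340 to 75617200, plus strand) had Tconv values from 618 (liver library 2) through 892 to 1085 (PBMC library 1). Its Treg values were 32.8, 41.3 and 29.2 in liver, 27.5, 8.98 and 16.2 in LDLN, 35.8, 22.2 and 20.1 in spleen and 63.4, 28.2 and 23.6 in PBMC. LDLN library 2 was the lowest and PBMC library 1 the highest, and the share of the Tconv level was 1.91% in LDLN and 3.72% to 4.30% elsewhere. Both genes overlap other annotated genes (Gm13480 and Gm25223 for Lypd6b, Gm26402 and Gm9985 for Ggt5), and with no strand setting known, reads of these pairs cannot be told apart.

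Fam240a (ENSMUSG00000096393, chromosome 9, 110914739 to 110916861, minus strand) is a short gene with few reads. Its Tconv values were 74.7, 38.4 and 62.8 in liver, 74.1, 86.7 and 103 in LDLN, 48.2, 51.7 and 80.8 in spleen and 55.9, 62.2 and 82.9 in PBMC. The lowest was liver library 2, and the tissues overlapped. In Treg, liver read 5.79, 0 and 5.21, LDLN 0.948, 0 and 0, PBMC 4.73, 6.05 and 2.05 and spleen 3.58, 0.964 and 3.65. LDLN held 1 read in 3 libraries, against 250 in LDLN Tconv, a share of 0.359%. From summed reads corrected for library size it was 0.365%, with a 95% exact counting interval of 0.00921 to 2.05%. In liver, PBMC and spleen the shares were 6.25%, 6.38% and 4.53%, on 9 to 13 reads. From summed reads these shares were 6.19%, 6.38% and 4.74%, with intervals of 3.04 to 11.3%, 3.34 to 11.2% and 2.13 to 9.21%. These intervals cover counting error only. Reads were summed over the 3 libraries of a group, so the spread between pools is left out, and PCR copies were not removed.

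Dapl1 (ENSMUSG00000026989, chromosome 2, 59484653 to 59505020, plus strand) had 12 Tconv values from 2083 (liver library 2) through a median of 2448 to 3963 (PBMC library 2), a group range of 1.25-fold between the highest and lowest tissue mean. Its Treg values were 139, 207 and 206 in liver, 113, 238 and 153 in LDLN, 149, 144 and 149 in spleen and 276, 298 and 201 in PBMC. The spleen libraries had an SD of 3.10, and PBMC held the 2 highest values. Treg held 6.14% of the Tconv level in spleen and 8.66% in PBMC, with liver and LDLN between. Among the lymphoid groups in Treg, Dapl1 differed (range of the 3 means 0.79 on the log2 scale, limma F-test adjusted p = 0.0147). That call is lost without PBMC Treg library 1 (adjusted p = 0.0603) or library 2 (0.0881).

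Slc16a5 (ENSMUSG00000045775, chromosome 11, 115462474 to 115474398, plus strand) varied most of the 10 between tissues in Tconv. Its Tconv values were 1027, 269.9 and 585 in liver, 1255, 1216 and 1494 in LDLN, 737, 496 and 954 in spleen and 1228, 735 and 1056 in PBMC. The 3 LDLN libraries lay above all spleen libraries and above all liver libraries, and liver library 2, the library with macrophage and B cell markers, gave the lowest value. The part of those other cells in it was not tested. In Treg the values were 54.05, 35.3 and 50.03 in liver, 118, 126 and 187 in LDLN, 38.5, 57.9 and 95.8 in spleen and 207, 144 and 136 in PBMC. LDLN and PBMC lay above liver and spleen without overlap. Liver was lower than the mean of the other tissues in Treg (log2 difference -1.25 ± 0.30 SE, limma adjusted p = 0.00554), and averaged over both cell types (-1.04 ± 0.21, adjusted p = 0.00133). In Tconv alone the difference was -0.83 ± 0.30 (adjusted p = 0.171). Without liver Tconv library 2 the Tconv difference was -0.32 (adjusted p = 0.961), and without library 1 it was -1.28 (adjusted p = 0.014). The Treg call is lost without liver Treg library 2 (adjusted p = 0.0579). The averaged difference without liver Tconv library 2 was -0.79 (adjusted p = 0.00716). Slc16a5 overlaps the antisense gene Gm11695, which shares its reads in an unstranded count.

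Nme4 (ENSMUSG00000024177, chromosome 17, 26091734 to 26095602, minus strand) had Tconv values from 78.04 (spleen library 1) through 142 to 163 (PBMC library 3). In Treg it read 4.83, 13.1 and 15.6 in liver, 9.48, 6.98 and 7.62 in LDLN, 18.8, 14.5 and 8.21 in spleen and 1.89, 11.1 and 9.22 in PBMC, and all groups overlapped. Treg held 4.70% of the Tconv level in PBMC and 14.3% in spleen. No tissue comparison passed the test for Nme4, with adjusted p from 0.158 (among lymphoid tissues in Treg) to 0.979 (liver in Tconv).

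Atp8b4 (ENSMUSG00000060131, chromosome 2, 126320973 to 126500674, minus strand) read 2217, 2429 and 2761 in liver Tconv, 1719, 1817 and 2390.4 in LDLN, 2732, 2116 and 2652 in PBMC and 1792, 1594 and 2129.6 in spleen. All liver libraries lay above all spleen libraries, while the other tissues overlapped. In Treg the values were 195, 246 and 216 in liver, 38.9, 42.9 and 85.7 in LDLN, 163, 33.7 and 72.96 in spleen and 213, 182 and 144 in PBMC. Liver and PBMC were high, LDLN was low, and spleen ran from below LDLN up to library 1. That library stood apart in plasma cell, B cell, macrophage and neutrophil markers. Treg held 8.87% of the Tconv level in liver and 2.83% in LDLN. Liver Treg were above the mean of the other tissues (log2 difference 1.29 ± 0.29 SE, limma adjusted p = 0.00306), while the difference in Tconv was 0.25 ± 0.29 (adjusted p = 0.804). Without spleen Treg library 1 the liver Treg difference was 1.48 (adjusted p = 7.87e-05). Averaged over both cell types, liver was higher by 0.77 ± 0.20 (limma adjusted p = 0.00952). With the 5 Tconv libraries with Foxp3 above 300 left out, the averaged difference was 0.82. That setting kept library 2 alone in liver Tconv, the library with macrophage and B cell markers. Among the 3 lymphoid groups in Treg the means spanned 1.74 log2 units (F-test adjusted p = 0.00139).

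Adamts14 (ENSMUSG00000059901, chromosome 10, 61197112 to 61273438, minus strand) had the same order of tissue means in Treg as Atp8b4: liver, PBMC, spleen, LDLN. Its Tconv values were 100.1, 170.0 and 143 in liver, 124, 109 and 114 in LDLN, 96.3, 82.5 and 140.4 in spleen and 163, 109.6 and 217 in PBMC, and they overlapped. In Treg the values were 21.2, 16.1 and 20.8 in liver, 5.69, 2.00 and 5.71 in LDLN, 24.1, 7.71 and 9.12 in spleen and 17.97, 13.1 and 17.4 in PBMC. The LDLN libraries lay below all others, and spleen library 1 gave the highest Treg value. Liver Treg were above the mean of the other tissues by 0.96 ± 0.30 on the log2 scale (limma adjusted p = 0.0285), and the 3 lymphoid means spanned 1.73 (adjusted p = 0.0018). Without spleen Treg library 1 the liver difference was 1.11 (adjusted p = 0.00497). The liver call is lost without liver Treg library 1 (adjusted p = 0.108), library 2 (0.0568) or library 3 (0.086). It is also lost under quantile scaling (0.132), with a pseudocount of 10 (0.08) and with only the groups compared (0.101).

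Igfbp4 (ENSMUSG00000017493, chromosome 11, 99041244 to 99054392, plus strand) held the highest share of its Tconv level in Treg, from 21.9% in liver to 33.2% in PBMC. Its Tconv values were 2663, 2250.4 and 2773 in liver, 3335, 2936 and 2881 in LDLN, 1647, 2494 and 2156 in spleen and 2596, 3543 and 3213 in PBMC. LDLN lay above liver and spleen without overlap, and spleen library 1 was lowest. In Treg the values were 439, 619.8 and 625 in liver, 647, 779 and 819 in LDLN, 514, 459.9 and 602 in spleen and 957, 1188 and 961 in PBMC. PBMC lay above LDLN and LDLN above liver and spleen, each without overlap. Igfbp4 was the only member to pass the test among the 3 lymphoid groups in both cell types, with means spanning 0.58 log2 units in Tconv (F-test adjusted p = 0.0129) and 0.98 in Treg (adjusted p = 0.000257). The Tconv call is lost without spleen Tconv library 1 (adjusted p = 0.136). Liver Treg were lower than the mean of the others (log2 difference -0.41 ± 0.13, limma adjusted p = 0.033). The call is lost without liver Treg library 1 (0.289) and, by less, without LDLN Treg library 2 (0.0508) or 3 (0.0533), PBMC Treg library 2 (0.052) or spleen Treg library 3 (0.0525). It is also lost under upper quartile scaling (0.0726) and without the variance trend (0.0537).

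**Figure D2:**
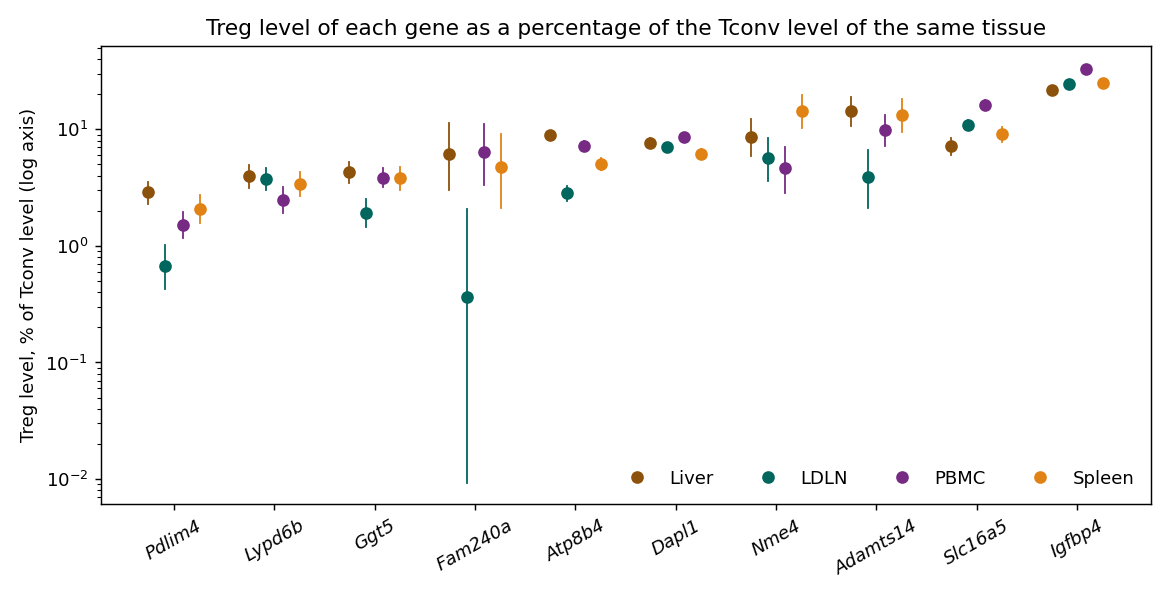
Treg level of each gene as a percentage of the Tconv level of the same tissue (log axis), from reads corrected for library size, with 95% exact counting intervals as bars and 1 color per tissue. The bars leave out the spread between pools. LDLN gave the lowest percentage of the 4 tissues for Pdlim4, Ggt5, Fam240a, Atp8b4 and Adamts14, and Igfbp4 stands highest, at 21.8% to 33.1%.

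The size of the difference varied between tissues within the group. On the log2(value + 1) scale the Treg minus Tconv difference of Pdlim4 was -5.06 in liver, -7.07 in LDLN, -5.54 in spleen and -6.18 in PBMC. Atp8b4 had -3.49 in liver and -5.20 in LDLN, Fam240a -4.05 and -6.14, and Adamts14 -2.74 and -4.51. For these genes, and for Ggt5 at -5.76, the largest gap was that of LDLN. In Lypd6b and Nme4 it was PBMC (-5.40 and -4.48), in Dapl1 spleen (-4.01), and in Igfbp4 liver (-2.20). Slc16a5 was alike in liver and spleen (-3.55 and -3.54). The genes were picked for these gaps, so no test was made of the differences between them. In LDLN Treg the macrophage and monocyte genes summed to 149 to 315, against 2279 to 2721 in PBMC Treg, 1780 to 3711 in spleen Treg and 240 to 995 in liver Treg. B cell genes summed to 1442 to 4078 in LDLN Treg, 8131 to 20306 in liver Treg, 9736 to 14305 in PBMC Treg and 6633 to 18333 in spleen Treg. Erythroid genes summed to 284 to 651 in LDLN Treg, 6829 to 19019 in liver Treg, 31126 to 34481 in PBMC Treg and 8309 to 38393 in spleen Treg. The part of these cells in the lower LDLN values was not tested.

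Ranked by the mean gap over 4 tissues among 13223 genes with a mean of at least 50 in a group, Pdlim4, Ggt5, Lypd6b, Fam240a, Atp8b4 and Dapl1 held ranks 1 to 6. Nme4 was at rank 8, Adamts14 at 13, Slc16a5 at 15 and Igfbp4 at 70. The gene at rank 7 was Klrd1 (-3.73), and Gzmk was at rank 12 (-3.38). Both are genes of cytotoxic lymphocytes. Pde3b, a phosphodiesterase kept low by Foxp3, was at rank 9 (-3.66), and Hs3st3b1 at rank 16. These neighbours were not among the members picked.

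Few tissue differences of the members passed the test in Tconv, where few of all genes passed that of liver. Of 10 members, 0 passed the test of liver against the mean of LDLN, PBMC and spleen in Tconv (limma, adjusted p of 0.05), and 3.18% of the 18576 genes tested did. The 0 of 10 is near that share, so nothing is read from it. Slc16a5 alone had an unadjusted p under 0.05 (0.0123). edgeR and DESeq2 on the recovered reads also called 0. Among the 3 lymphoid groups in Tconv, 1 of 10 passed, Igfbp4, against 27.4% of all genes. The ratio of the highest to the lowest tissue mean ran from 1.24 (Lypd6b) to 2.11 (Slc16a5), with a median of 1.49. PBMC had the highest mean in 8 of 10 genes, all but Fam240a and Slc16a5, and spleen the lowest in 7. These orders were not counted over all genes, so nothing is read from them as a trait of the members. Tissues next to each other in order overlapped in every gene but Igfbp4.

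In Treg the same tests called more of the members, and also more of all genes. Against the lymphoid mean, liver differed in 5 of 10 members, and in 19.7% of all genes: Pdlim4 (1.17 ± 0.32, adjusted p = 0.0145), Atp8b4 and Adamts14 were higher, and Slc16a5 and Igfbp4 lower. Among the 3 lymphoid groups 8 of 10 were called, all but Lypd6b and Nme4, against 38.8% of all genes. Fam240a was 1 of the 8, but it entered the test through its Tconv values alone and never reached 10 in Treg, so its call is not used, which leaves 7 of 9. In liver Treg the plasma cell genes summed to 2553 to 5778, against 567 to 914 in LDLN and PBMC Treg and 1684 to 12309 in spleen Treg, and their part in the liver differences was not tested. Averaged over both cell types, which makes no use of the difference between them, 2 of 10 members differed between liver and the rest. These were Slc16a5 and Atp8b4, and the share of all genes was alike, at 20.9%. With the library number as a replicate block, 5 members passed, and 4410 of the 18576 genes. The average takes Treg and Tconv libraries of a tissue as independent. If those of the same number share mice, which the labels do not say, its errors are too small. Each of these tests shares libraries with the contrast that chose the members, and the differences between the Treg and Tconv tissue effects were not tested. In the 9 genes other than Fam240a, tissue means in Treg spanned 1.36-fold (Lypd6b) to 4.34-fold (Adamts14), with a median of 2.19. LDLN was lowest in 5 of the 10, Fam240a with its 1 read included, and this too was not counted over all genes. The call of Pdlim4 in liver Treg did not survive the loss of liver Treg library 1 (limma adjusted p = 0.0558) or library 2 (0.055). It was also lost under quantile scaling (0.0673) and with only the groups compared (0.0632). The lymphoid Treg calls lost by library were Pdlim4 (adjusted p = 0.0424 with all) without LDLN library 1 (0.227) or 3 (0.119), PBMC library 1 (0.0647) or spleen library 3 (0.0615). Pdlim4 also lost this call with a pseudocount of 10 (0.128), quantile scaling (0.1), only the groups compared (0.209) and edgeR (0.116), among others. Ggt5 (0.0322) lost its call without LDLN library 2 (0.188) or 3 (0.0711) or PBMC library 1 (0.108). Its call was also lost with a pseudocount of 10 (0.0523), quantile scaling (0.0746) and only the groups compared (0.193), among others. Slc16a5 (0.00832) lost it without spleen library 1 (0.0845). Atp8b4, Adamts14 and Igfbp4 passed the lymphoid Treg test without any 1 library.

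**Figure D3:**
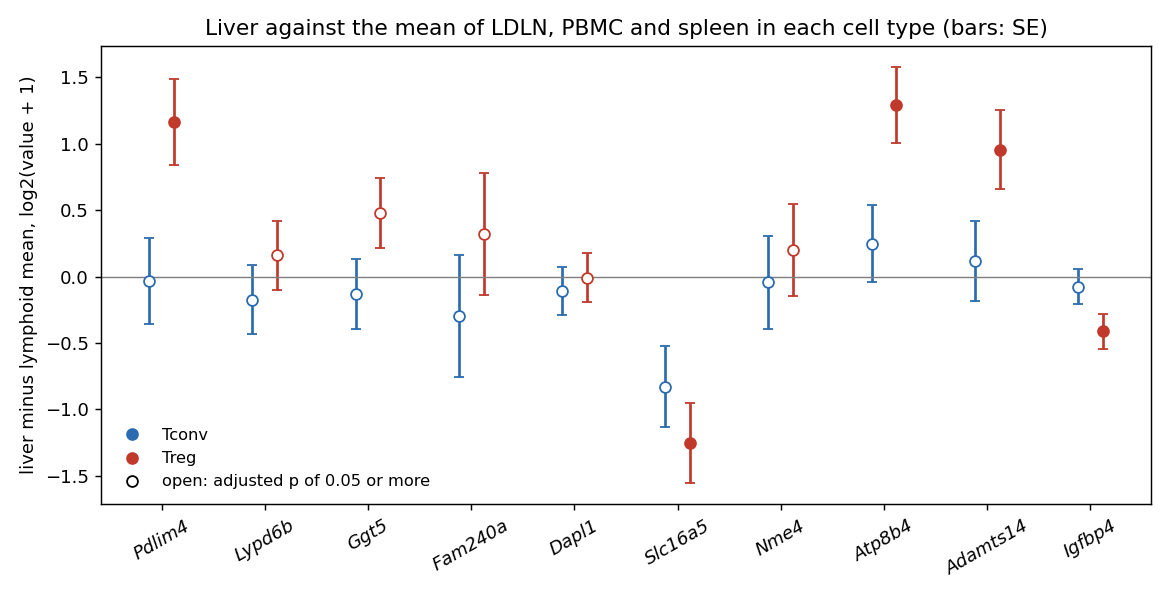
Difference of liver from the mean of LDLN, PBMC and spleen on the log2(value + 1) scale for each gene, in Tconv (blue) and Treg (red), with standard errors and filled points where the adjusted p was under 0.05. All 10 Tconv points are open, and the filled Treg points are Pdlim4, Slc16a5, Atp8b4, Adamts14 and Igfbp4.

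The paralogues of the members moved in both directions. Of 87 listed paralogues 60 were tested, and in liver 9 were lower and 7 higher in Treg, in LDLN 9 and 6, in PBMC 5 and 9, and in spleen 8 and 7. Of all genes tested, 10.3% were lower and 10.2% higher in Treg in liver, 5.99% and 7.83% in LDLN, 7.95% and 10.2% in PBMC, and 8.75% and 10.1% in spleen. The medians of the 60 differences were 0.16, -0.04, 0.03 and -0.14, beside 0.03, 0.00, -0.01 and -0.02 for all genes. The lowest of them was Ggt1, a cell surface transferase that breaks down glutathione, which was lower in Treg in all 4 tissues, with log2 differences from -2.94 in spleen to -0.95 in liver. Ly6c2, a Ly6 surface protein, was lower (mean -1.81, called in 3 tissues). Atp8a2 was lower in liver, PBMC and spleen (mean -1.65), while Slc16a3, a lactate exporter, was higher in LDLN, PBMC and spleen (mean 1.66) and Atp9a and Adamts6 in all 4 tissues (means 1.61 and 1.49). Pdlim1 was lower in all 4, with a mean of -0.87 against -5.97 for Pdlim4.

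**Figure D4:**
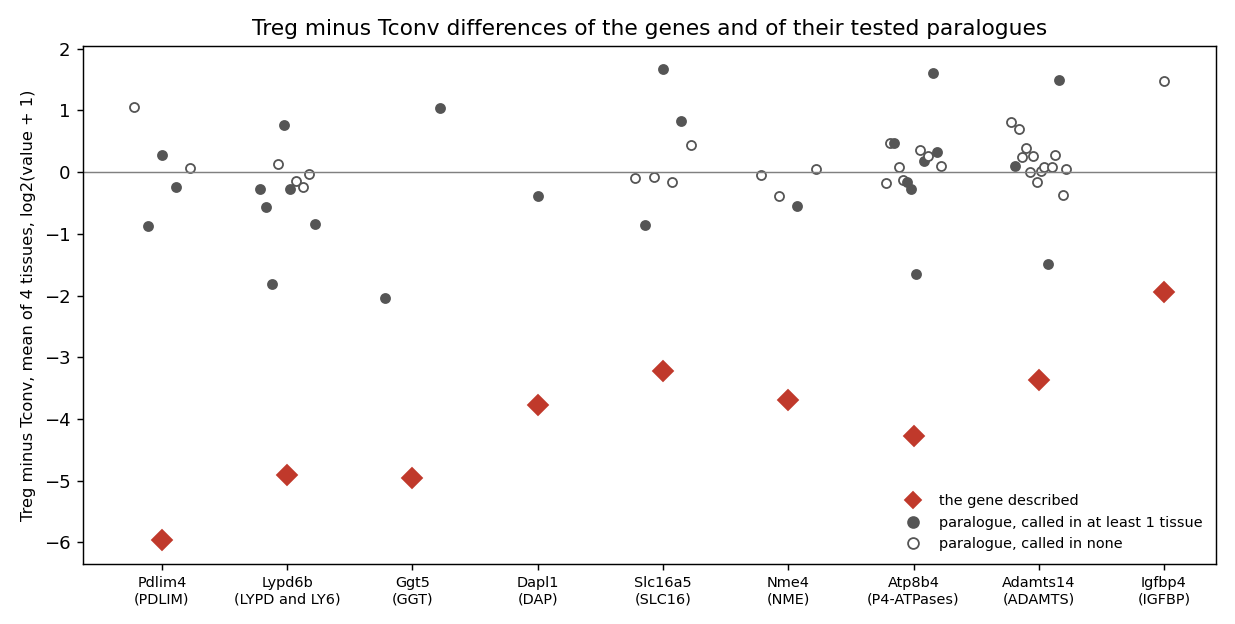
Treg minus Tconv differences, mean of 4 tissues, on the log2(value + 1) scale, for each gene with tested relatives (red diamonds) and for those relatives (grey circles, filled where called in at least 1 tissue). Each diamond lies below all circles of its family, which follows from how the genes were picked, and the lowest circle is Ggt1, at -2.04.

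Genes around Igfbp4 and Ggt5 were also counted. Of 9 tested genes of the insulin-like growth factor axis, 1 was lower and 1 higher in Treg in liver, and 0 lower with 2, 2 and 3 higher in LDLN, PBMC and spleen, beside medians of 0.42, 0.70, 0.79 and 0.58. Igf1r, the receptor, was higher in all 4 tissues (mean 1.40) and Igf2r, which clears Igf2, in LDLN, PBMC and spleen (mean 1.00). Insr, the insulin receptor, was lower in liver (-0.48). Of 15 tested genes of the glutathione and leukotriene route, 1, 1, 0 and 1 were lower and 3, 3, 5 and 4 higher in the 4 tissues in that order, with medians of 0.03, 0.20, 0.33 and 0.27. Cysltr1 and Cysltr2, receptors of the cysteinyl leukotrienes, were higher in Treg in all 4 (means 2.50 and 1.41). Gsr was higher in PBMC and Gpx4 in liver, PBMC and spleen (means 0.44 and 0.37).

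Of 20 naive and resting T cell genes, 13 were lower and 0 higher in Treg in liver, 13 and 2 in LDLN, 12 and 0 in PBMC, and 16 and 0 in spleen, with medians of -0.90, -0.67, -0.55 and -0.68. Als2cl (mean -2.32), Tcf7 (-1.68), Lef1 (-1.62) and Satb1 (-1.51) were lower in every tissue. Of 16 genes associated with Tconv or repressed in Treg, 7, 7, 8 and 7 were lower and 0, 2, 0 and 1 higher (medians -1.26, -0.76, -0.69 and -0.70). A low level in Treg was thus part of what this list was made for. It was also chosen with earlier results of these data known, so its counts are no support. Lower in all 4 tissues were Pde3b (mean -3.66), Il2 (-2.38), Cd40lg (-2.22) and Themis (-1.90). Tcf7 and Satb1 are on both lists. All members but Igfbp4 had a larger mean gap than Als2cl, but they were picked for the size of that gap. Of 19 tested Treg core genes, 17 were higher in liver and 19 in each of the other tissues, with 0 lower and medians of 2.78, 3.14, 3.28 and 2.38. The 2 that missed the threshold in liver were Foxp3, with a difference of 3.35 (adjusted p = 0.0834), and Il2rb, with 0.77 (0.0828), a gene named after its values were seen.

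Over the 24 libraries, the genes whose log2 values were most like the mean of the 10 members were Vipr1 (Pearson r 0.991), Rapgef4 (0.990), Hs3st3b1 (0.987), Lef1 (0.984), Als2cl (0.983) and Themis (0.982), out of 11378 compared. These values describe points that share libraries and the Tconv and Treg split. Single members had closest genes of their own. Slc16a5 was most like Tet1 (0.972), Nme4 like Mettl9 (0.958), Atp8b4 like Pde3b (0.978), Adamts14 like Qrfp (0.965) and Igfbp4 like Cers6 (0.968). Pdlim4 was closest to Pxylp1 (0.979), Lypd6b to Themis (0.983), and Ggt5 and Dapl1 to Hs3st3b1 (0.985 and 0.989). Fam240a was closest to Rapgef4os3 (0.969).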

How the data were processed

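The submitters' processing notes name HTSeq 0.6.1p1, SAMtools 0.1.19, Bowtie2 2.2.2, TopHat2 2.0.11 and Trimmomatic 0.32, with GRCm38; the strand setting is not given in the sources used here. The values the authors deposited are a signal, gene counts divided by a size factor; dividing by the value of 1 read gave whole reads within 0.001 for 100% of values. Symbols and coordinates came from GENCODE M21 on GRCm38.

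The 18576 of 35612 genes that reached 10 in 3 or more of the 24 libraries were transformed as log2(value + 1), which understates changes of low genes, and fitted in 1 model of 8 groups with limma 3.58.1 (R 4.3.3; variance trend, 16 residual degrees of freedom). Adjusted p-values are Benjamini-Hochberg over all genes tested, called at 0.05. The fit was tested on simulated data. Alternatives were another pseudocount, filter or scaling, no variance trend, only the groups compared, a replicate block and each library left out. Also run were edgeR 4.0.16 and DESeq2 1.42.0 on recovered reads. Leaving out Tconv libraries with Foxp3 above 300 was added after seeing the data.

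The members and lists were chosen with earlier results of these data known. All members were named; from each list, up to 4 genes with the largest mean difference among those called in at least 1 tissue with a mean of at least 50. Genes ranked beside the members (Klrd1, Gzmk) were named after their values were seen. Likeness took the highest Pearson r over the 24 libraries.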

Additional observations from a re-analysis of the deposited data

How the results depend on the processing

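The Treg minus Tconv differences of the 10 genes ran from -8.64 to -1.49 over the 760 values of the alternatives run. The genes were picked for these differences in the same libraries, so their constant sign is no support. In the tissue tests, of 1260 values of single genes under an alternative, 48 lost a call, 16 gained one and none that was called changed sign. Of the members, the number called among lymphoid tissues in Treg was 5 with a pseudocount of 10 or only the groups compared, against 8 with Fam240a counted. In liver Treg it was 3 under quantile scaling or with only the groups compared, against 5. Among lymphoid tissues in Tconv it was 4 with only the groups compared and 2 with DESeq2, against 1. Leaving out the 5 Tconv libraries with Foxp3 above 300 was an alternative chosen after seeing the data. It kept library 2 alone in liver Tconv, so its counts are not given, though the 1260 values include it.

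Over all genes, 590 were called in liver Tconv, and 288 with only the groups compared, 947 with edgeR, 1137 with DESeq2 and 1359 without those 5 libraries. The cause of these moves was not tested. Leaving out 1 library at a time gave 137 (without liver Tconv library 2) to 1176 (without library 1) there, 2019 to 3808 in liver Treg and 2569 to 4192 over both cell types. Members called then ranged from 0 to 1 in liver Tconv, 2 to 5 in liver Treg, 2 to 3 over both, 0 to 1 among lymphoid tissues in Tconv and 5 to 8 in Treg.

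The replicate numbers were not taken as pairs: deviations of same-numbered libraries correlated at 0.07 to 0.42 between Treg and Tconv of a tissue, over 0.1 in 10 of 12 pairs, and at -0.40 to 0.19 between tissues. In 11 of 12 pairs a library correlated best with its own number, a hint from the data and not from the design. With the number as a replicate block, 5 members passed over both cell types (Pdlim4, Adamts14 and Igfbp4 added) and the other counts of members did not move. Few reads limit Fam240a, Nme4 and Adamts14 in Treg.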
